A study of Mus musculus with 24 samples.

Results

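Lysosomal enzymes, lysosomal membrane proteins, and subunits of the vacuolar H+-ATPase (V-ATPase) were followed through 8 mouse astrocyte lines that lacked p53 or expressed 1 of 3 p53 mutants. Membership was set by a list of 50 gene names, with no threshold on measured values, and 49 of the 50 were among the 14427 genes of the count table. The 49 comprised 7 membrane proteins, 10 cathepsins and other proteases, 9 glycan hydrolases, 10 lipid hydrolases and lipid carriers, 5 V0 or accessory subunits and 6 V1 subunits of the V-ATPase, and the transcription factors Tfeb and Tfe3. Ctss was not analysed here. The lowest count of any member in any library was 15, and 48 of the 49 had at least 100 counts in every library. None of the 49 was thus lost to the filter on low values applied here. Every gene of the table already passed that filter, 1 CPM in at least 2 libraries. The study describes leaving out genes of low expression, so a listed gene of low expression could be absent from the table.

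RNA-seq of polyA RNA was carried out on 24 libraries, 3 from each of 8 lines. The lines came from 1 male and 1 female primary culture of cortical astrocytes on a C57BL/6 background, each pooled from at least 3 pups at postnatal day 1 that carried a floxed and a deleted Trp53 allele. All lines received Cre by lentivirus and were selected with puromycin, so the p53 KO lines and the mutant lines share the deletion. The p53 R172H, p53 Y202C, and p53 Y217C lines had in addition been given a retrovirus that expresses the mutant mouse Trp53 together with eGFP, and were sorted for eGFP, a step that the p53 KO lines did not go through. Each line is thus 1 transduced population of 1 culture, studied at passages 10 to 15, and the 3 libraries of a line, described as separate thaws and platings for the study's experiments in culture, measure the spread within that population. Sex and culture cannot be told apart. Each mutant line was compared with the p53 KO line of its own culture, which asks what the mutant protein adds to the loss of p53, and the effects of a mutation in the 2 cultures were then compared with each other.

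The libraries held between 52787288 and 136503809 counts, with a median of 80684345. Transcripts of Trp53 stood at 46.5 to 53.7 CPM (counts scaled to the total of the library) in the 6 p53 KO libraries and at 572 CPM or more in the 18 mutant libraries, from 572 to 605 in female p53 Y202C up to 3546 to 3870 in female p53 Y217C. Of the astrocyte markers, Gfap and Aqp4 were near 0 in most lines and others were not. Gfap was at most 0.29 CPM in every line but male p53 Y217C (4.98 to 8.37), and Aqp4 was at most 0.145 CPM in every line but male p53 Y202C (1.64 to 1.91) and male p53 Y217C (6.998 to 9.22). Sox9 (70.9 to 186 CPM) and Gja1 (77.3 to 238 CPM) were present in every library, as was Glul (24.5 to 71.3 CPM). Slc1a3 ranged from 3.07 to 3.24 CPM in female p53 Y217C to 271 to 287 in female p53 R172H, and was 97.8 to 110.3 in male p53 Y217C against 11.5 to 12.9 in male p53 KO. Aldh1l1 was at 13.2 to 62.2 CPM in male p53 Y202C, male p53 Y217C, and female p53 R172H and below 1 CPM elsewhere. Some genes of fibroblasts and mural cells were abundant: mean Col1a1, Col3a1, and Acta2 were 17294, 2390, and 2235 CPM in male p53 KO. Pdgfrb was at 267 CPM in that line, but Dcn, Lum, and Rgs5 were at 2.70, 0.154, and 2.93 CPM. Dcn and Lum were highest in female p53 R172H, at 105 and 18.2 CPM. The summed level of the 7 listed genes ran from 6202 to 7334 CPM in male p53 Y202C, against 20488 to 23987 in male p53 KO, and was highest in female p53 R172H at 30294 to 35433. In male p53 Y202C 1 of the 7 was called higher and 3 lower. Mean Col1a1 and Col3a1 were 3361 and 765 CPM there, but Acta2, Pdgfrb, and Dcn were at 2326, 260, and 4.86 CPM, so the lower sum reflects the collagens. In female p53 R172H 6 were called higher and 1 lower. The 11 of 12 astrocyte genes with values summed to 390.1 to 412 CPM in male p53 KO. It was 227 to 240.5 CPM with p53 Y202C (3 genes higher, 8 lower), and 563 to 609 CPM were found with p53 Y217C (8 higher, none lower). Against 393 to 419 CPM in female p53 KO, the astrocyte genes summed to 654 to 688 in female p53 R172H (5 higher, 2 lower). Mean Slc1a3 was 281 CPM there against 18.7 in female p53 KO, whereas Gja1 was 157 against 221 and Glul 31.6 against 43.8. In female p53 Y217C the sum was 275 to 311 CPM (1 higher, 5 lower), and in female p53 Y202C 380 to 424 (5 higher, 1 lower). Of 12 microglial and macrophage genes listed, 2 had values, Tmem119 and Csf1r. Mean Tmem119 was 73.0 CPM in male p53 KO, 20.5 with p53 Y202C, and 16.4 with p53 Y217C, and 44.6 in female p53 KO against 107 in female p53 R172H, and Csf1r was 0.198 to 3.18 CPM over all libraries. The 3 endothelial genes with values summed to 204 to 224 CPM in male p53 KO, 54.4 to 60.5 with p53 Y202C, and 35.4 to 38.8 with p53 Y217C. The 4 genes of the oligodendrocyte lineage summed to 264 to 286, 149 to 175, and 64.3 to 67.7 CPM in these lines, and 4 neuronal genes to 74.9 to 161 CPM over all libraries. Single neuronal genes moved in opposite directions in male p53 Y217C (1 higher, 3 lower). Mean Map2 was 116 CPM there against 13.2 in male p53 KO, and Tubb3 15.7 against 88.0. In bulk RNA, fewer cells of one type and less RNA per cell cannot be told apart, and the part of these marker levels in the results on lysosomal genes was not tested.

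Lysosomes are the acidic compartment in which cells break down proteins, glycans, and lipids that arrive by endocytosis and autophagy. The V-ATPase pumps protons into the lumen through a membrane-bound V0 ring, driven by a cytosolic V1 head that hydrolyzes ATP, and the resulting low pH keeps the soluble hydrolases active. TFEB and TFE3 are basic helix-loop-helix transcription factors that enter the nucleus when mTORC1 is inactive and bind E-box motifs near the starts of many lysosomal genes, and astrocytes rely on lysosomes to clear material taken up from their surroundings.

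Because such E-boxes are known near the starts of many of these genes, the windows from 250 bases before to 50 bases after each RefSeq transcription start (GRCm38.p6) were searched for the motif CACGTG and for the longer TCACGTGA, which contains it. Both motifs read the same on the 2 strands. A window was available for 42 of the 49 members. CACGTG was present for 14 of the 42 (33.3%, 95% exact binomial interval 19.6 to 49.5%) and for 11.7% of the 10290 genes of the table with a window. TCACGTGA was present for 8 of the 42 (19.0%, 8.6 to 34.1%) and for 2.16% of the 10290 genes. Counted by windows, some genes having more than 1, CACGTG was in 29.2% of the members' 48 windows and in 9.77% of all 13206, and TCACGTGA in 16.7% and 1.78%. With the search narrowed to 100 bases before the start, the shares were 21.4% of members against 7.42% of genes for the shorter motif and 11.9% against 1.65% for the longer one. The 8 members with the longer motif were Ctsa, Cln3, Ctsd, Mcoln1, Gla, Atp6v0d1, Atp6v0e, and Atp6v1a, and the 6 with the shorter one alone were Lamp1, Glb1, Naglu, Gaa, Ctsl, and Ctsf. A match describes the letters of the window and does not show that a factor binds there.

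The stretches below show the motif in 4 members whose values are given later, a membrane protein, a glycan hydrolase, and a subunit of V0 and of V1. They are written 5′ to 3′ on the gene's strand, CACGTG is in capitals, and each stops short of the exons that GENCODE M21 places there. The stretch of Atp6v1a lies before the RefSeq start but inside the span that GENCODE M21 gives this gene (chr16:44085402-44139705).
Lamp1 (chr8:13159011-13159160, plus strand): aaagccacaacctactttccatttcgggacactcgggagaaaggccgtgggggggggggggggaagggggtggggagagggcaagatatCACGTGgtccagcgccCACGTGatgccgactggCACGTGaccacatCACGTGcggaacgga
Glb1 (chr9:114400928-114401075, plus strand): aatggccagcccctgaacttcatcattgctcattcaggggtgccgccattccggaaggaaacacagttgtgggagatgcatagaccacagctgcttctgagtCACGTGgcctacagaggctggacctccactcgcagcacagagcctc
Atp6v0d1 (chr8:105566048-105566214, minus strand): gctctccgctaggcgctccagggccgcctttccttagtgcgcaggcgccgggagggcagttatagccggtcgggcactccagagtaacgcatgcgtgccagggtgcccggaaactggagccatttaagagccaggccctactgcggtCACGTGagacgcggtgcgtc
Atp6v1a (chr16:44139306-44139439, minus strand): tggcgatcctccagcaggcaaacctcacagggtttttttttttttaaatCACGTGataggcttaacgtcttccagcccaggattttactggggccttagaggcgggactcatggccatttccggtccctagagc
Lamp1 carried 4 copies within 61 bases of its start, at positions -61, -45, -28, and -15. The copies in Atp6v0d1 and Atp6v1a, at -3 and -131, were part of the longer motif.

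**Figure D1:**
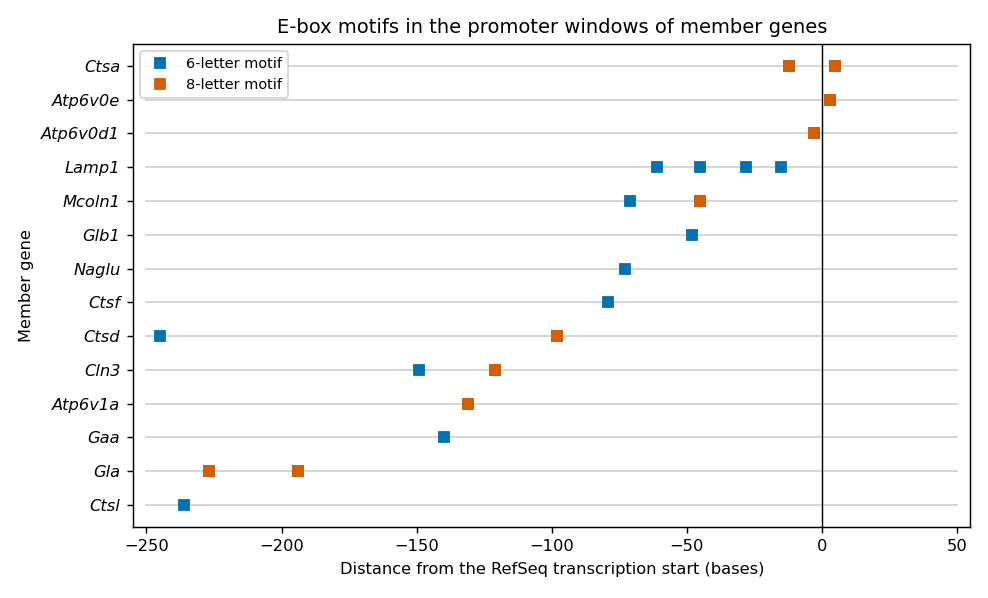
Position of E-box motifs in the promoter windows of the 14 members that have one, by distance in bases of the first motif base from the RefSeq start (vertical line). Blue squares mark CACGTG, orange squares the longer TCACGTGA. Lamp1 has 4 copies between -61 and -15, and Gla and Ctsa have 2 of the longer motif.

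Of the 49 members, 23 were higher and 7 lower in male p53 R172H than in male p53 KO, where 20.2% and 20.5% of all 14427 genes were called in these directions (edgeR quasi-likelihood test, adjusted p of 0.05 or less over all genes). The median log2 fold change of the members was 0.16, beside 0.01 for all genes. In male p53 Y202C 41 members were higher and 4 lower, with 37.6% and 35.4% of all genes called, and the median rose to 0.80 (0.01 for all genes). In male p53 Y217C 42 members were higher and 6 lower, with 34.9% and 35.6% of all genes called, and the median was 0.87 (0.00 for all genes). A log2 fold change above 1 together with a call was seen for 17 members in male p53 Y202C and for 20 in male p53 Y217C, beside 10.4% and 10.7% of all genes, and for none in male p53 R172H.

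Among the female lines, 35 members were higher and 6 lower in p53 R172H (34.4% and 35.3% of all genes), 33 higher and 10 lower in p53 Y202C (34.3% and 34.3%), and 26 higher and 10 lower in p53 Y217C (28.0% and 28.7%). The medians were 0.32, 0.31, and 0.18, and those of all genes were -0.01, 0.00, and 0.00. In each of the 6 comparisons the share of members called higher thus lay above the share of all genes, and the share called lower lay below it. The medians were small in 4 of the lines, though single members there changed by more than 1, except in male p53 R172H. With a call and a log2 fold change above 1, female p53 R172H, p53 Y202C, and p53 Y217C had 5, 3, and 1 members, beside 10.9%, 9.35%, and 3.9% of all genes. Below -1 they had 1, 0, and 2, beside 6.3%, 6.38%, and 5.32%. With a log2 fold change above 0.5 or below -0.5 also required, 34 members stayed higher in male p53 Y202C and 34 in male p53 Y217C, but 3 in male p53 R172H. The female lines kept 20 with p53 R172H, 16 with p53 Y202C, and 10 with p53 Y217C. Over all genes, the upper quartile of the log2 fold change was 0.19, 0.46, and 0.43 in male p53 R172H, p53 Y202C, and p53 Y217C. It was 0.41, 0.41, and 0.28 in the female lines. The count of 23 in male p53 R172H fell to 14 without male p53 KO replicate 1, without male p53 R172H replicate 3, or at an adjusted p of 0.01.

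**Figure D2:**
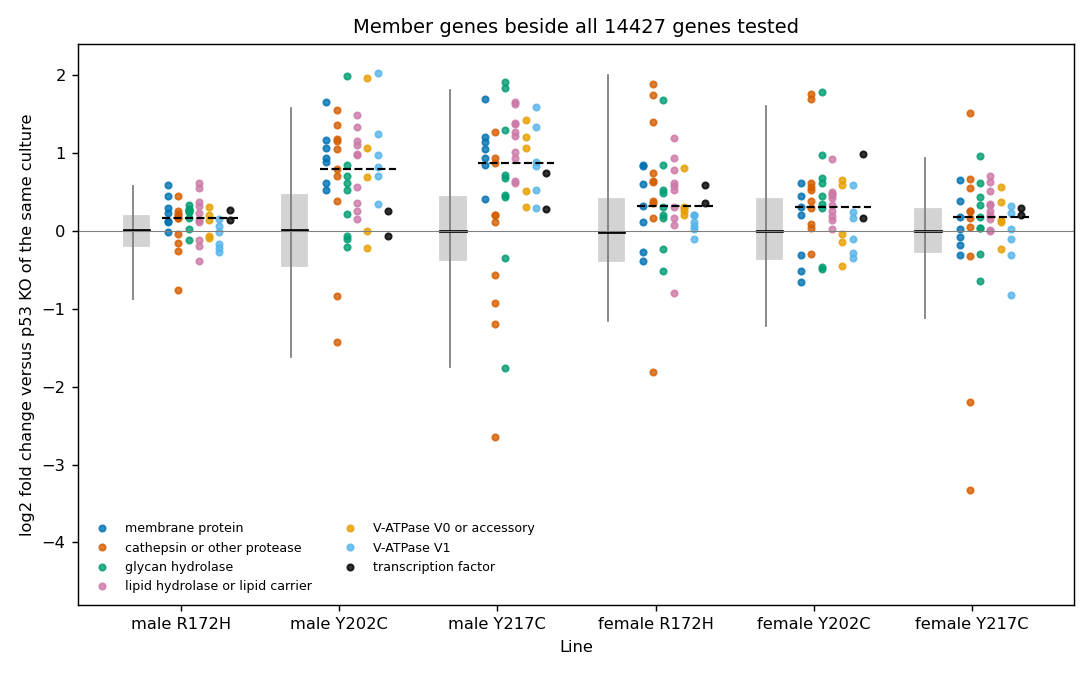
log2 fold change of the 49 members (points, colored by role) in each mutant line against the p53 KO line of its culture, with the members' median as a dashed line. The gray box and line at the left of each group span the middle 50% and 90% of all 14427 genes, with their median in black. The members' medians are 0.80 and 0.87 in male p53 Y202C and p53 Y217C and between 0.16 and 0.32 in the other lines.

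The libraries of a line were close to each other. The coefficient of variation over the 3 libraries had a median over the members of 3.17% in female p53 KO to 7.55% in female p53 Y202C, and the largest single value was 47.7%, for Ctsc in female p53 Y217C, where it was nearly silent. Taken library by library, the median over members of log2 CPM minus the mean of the male p53 KO libraries was 0.76, 0.79, and 0.73 in male p53 Y202C and 0.92, 0.77, and 0.95 in male p53 Y217C, against 0.07, 0.21, and 0.23 in male p53 R172H. The p53 Y202C and p53 Y217C libraries of the male culture therefore stood apart from the male p53 R172H libraries in every replicate. Taken from the mean of the female p53 KO libraries, the female values were 0.37, 0.32, and 0.32 with p53 R172H, 0.28, 0.35, and 0.32 with p53 Y202C, and 0.25, 0.12, and 0.18 with p53 Y217C.

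**Figure D3:**
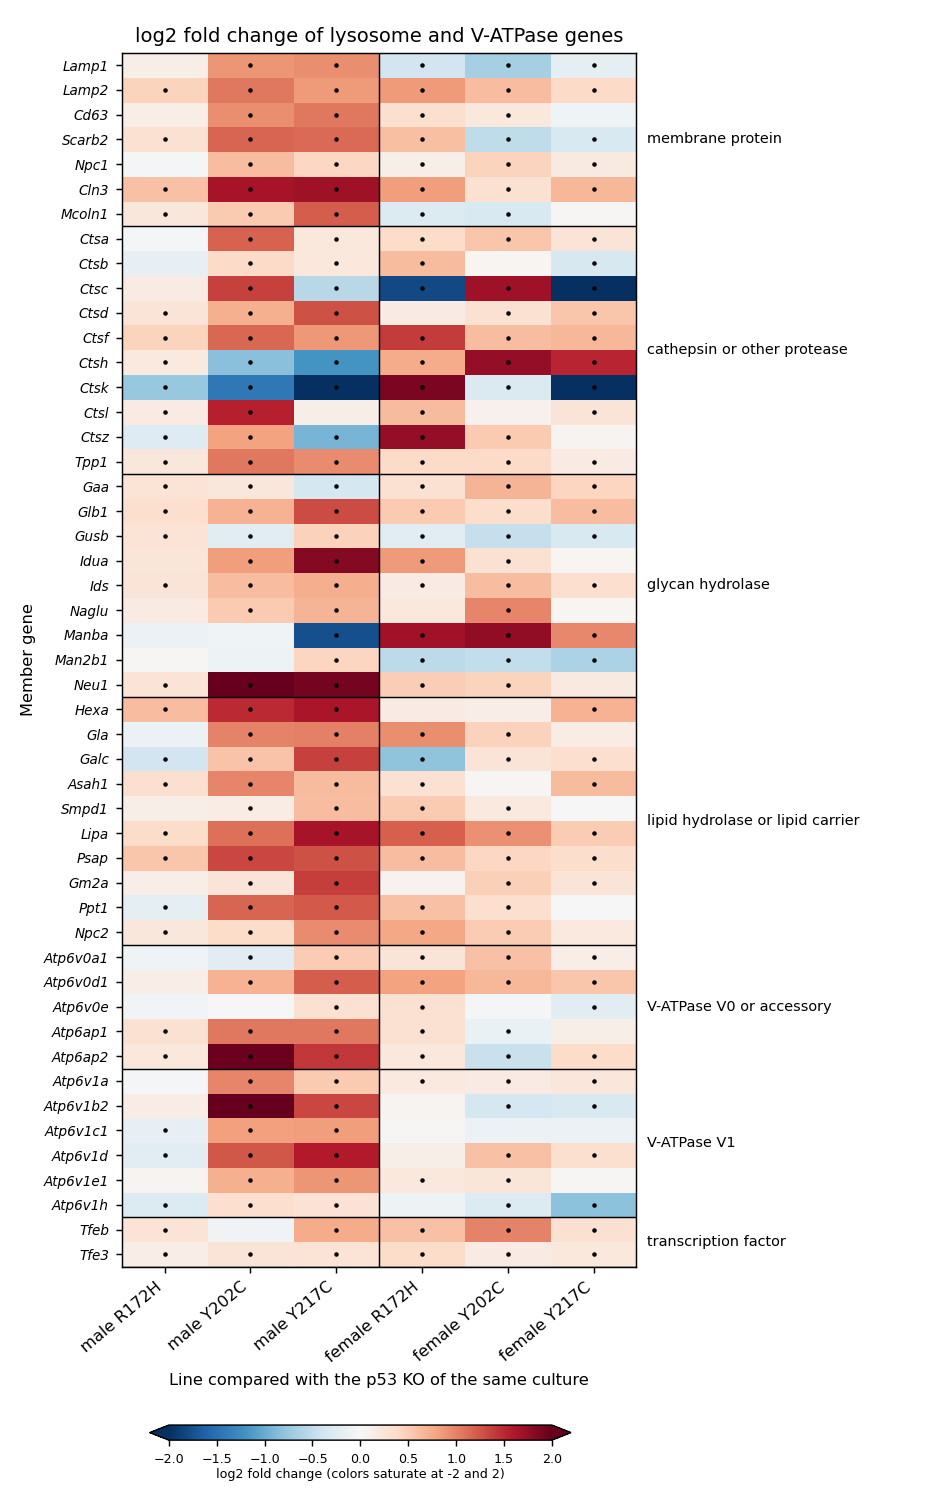
log2 fold change of each member (rows, grouped by role) in each mutant line against the p53 KO line of its culture (columns, male at the left of the vertical line). Red is higher, blue lower, and a dot marks an adjusted p of 0.05 or less. The columns of male p53 Y202C and p53 Y217C are red for 41 and 43 of 49 members, of which 41 and 42 are called, and the rows of Ctsk, Ctsc, Ctsh, and Manba change color between columns.

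The 2 p53 KO lines, which are the references of these comparisons, differed in 22 members. Of these, 14 were higher and 8 lower in male than in female p53 KO, with 17.2% and 13.8% of all genes called and a member median of 0.07 (0.00 for all genes). Manba, Ctsk, and Ctsz had log2 differences above 1, of 1.80 ± 0.11 (adjusted p = 3.69e-12), 1.24 ± 0.11 (adjusted p = 4.13e-09), and 1.21 ± 0.08 (adjusted p = 1.15e-11). Scarb2 and Man2b1 had the lowest, at -0.53 ± 0.05 (adjusted p = 1.27e-08) and -0.62 ± 0.06 (adjusted p = 1.17e-08). Of the 6 members on chromosome X, Lamp2, Ids, Gla, Tfe3, Atp6ap1, and Atp6ap2, only Ids differed between the p53 KO lines, by 0.17 ± 0.06 (adjusted p = 0.0337). In CPM per kilobase of exon, Lamp1 was the most abundant member in both p53 KO lines (303 in male and 375 in female), followed by Psap (243 and 214) and Ctsd (214 and 204), and Cln3 was the least abundant (0.757 and 0.645).

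Relative to male p53 KO, all 7 membrane proteins were higher with p53 Y202C and with p53 Y217C, with medians of 0.93 and 1.05, and 4 of 7 were higher in male p53 R172H (median 0.23). In the female culture 5 were higher and 2 lower in p53 R172H, 4 higher and 3 lower in p53 Y202C, and 3 higher and 2 lower in p53 Y217C. With p53 R172H, p53 Y202C, and p53 Y217C, 20.2%, 37.6%, and 34.9% of all genes were called higher in male. The female shares were 34.4%, 34.3%, and 28.0%. Called lower were 20.5%, 35.4%, and 35.6% of all genes in male and 35.3%, 34.3%, and 28.7% in female. Lamp1 (chr8:13159161-13175338, GRCm38), a glycoprotein that lines the inner face of the lysosomal membrane, rose with p53 Y202C and p53 Y217C in the male culture and fell with all 3 mutants in the female one. Lamp1 stood at 824, 808 and 802 CPM in the 3 male p53 KO libraries. With p53 R172H the male libraries held 892, 849.7 and 881 CPM, with p53 Y202C 1505, 1563 and 1415 CPM, and with p53 Y217C 1564, 1454 and 1624 CPM. Female p53 KO libraries held 989.7, 1029 and 991 CPM, against 763, 724 and 812 with p53 R172H, 615, 707 and 584 with p53 Y202C, and 856, 879 and 918 with p53 Y217C. All libraries of male p53 Y202C and p53 Y217C lay above every other library, and the female mutant libraries lay below all female p53 KO libraries. The log2 fold changes from male p53 KO were 0.11 ± 0.06 (SE, adjusted p = 0.168) with p53 R172H, 0.88 ± 0.06 (adjusted p = 5.14e-12) with p53 Y202C, and 0.93 ± 0.06 (adjusted p = 2.07e-12) with p53 Y217C. From female p53 KO they were -0.39 ± 0.06 (adjusted p = 5.1e-06), -0.66 ± 0.06 (adjusted p = 1.57e-09), and -0.18 ± 0.06 (adjusted p = 0.0142) in the same order of mutations. The small fall in female p53 Y217C was lost without female p53 Y217C replicate 1, at -0.16 (adjusted p = 0.058), or without female p53 KO replicate 2, at -0.16 (adjusted p = 0.0545). Some exon bases of Lamp1 overlap Grtp1 on the other strand.

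Mcoln1 (chr8:3500457-3515232), the lysosomal calcium channel TRPML1, showed a related pattern at a lower level. Male p53 KO libraries held 41.2, 42.7 and 41.99 CPM of Mcoln1. The male lines with p53 R172H had 48.2, 50.1 and 49.4 CPM, those with p53 Y202C 63.4, 60.9 and 55.8 CPM, and those with p53 Y217C 102, 89.9 and 100.1 CPM. The female lines had 53.4, 50.5 and 51.3 CPM without p53, 45.4, 39.3 and 43.7 CPM with p53 R172H, 42.7, 43.9 and 38.3 CPM with p53 Y202C, and 55.2, 48.98 and 54.9 CPM with p53 Y217C. Its libraries were highest in male p53 Y217C, with no overlap with any other line. Relative to male p53 KO, the log2 fold changes were 0.23 ± 0.07 (SE, adjusted p = 0.00675) with p53 R172H, 0.52 ± 0.07 (adjusted p = 1.56e-07) with p53 Y202C, and 1.21 ± 0.07 (adjusted p = 4.14e-14) with p53 Y217C. The female values in the same order were -0.27 ± 0.06 (adjusted p = 0.000668), -0.31 ± 0.07 (adjusted p = 0.000183), and 0.03 ± 0.06 (adjusted p = 0.669). Cln3, the protein lost in juvenile neuronal ceroid lipofuscinosis, had the largest rise of the group in both male p53 Y202C (1.65 ± 0.10, adjusted p = 7.16e-13) and male p53 Y217C (1.69 ± 0.10, 5.05e-13), and overlaps Apobr on the other strand. Scarb2, the receptor that carries glucocerebrosidase to the lysosome, rose in male p53 Y202C and p53 Y217C (1.17 and 1.14) and fell in the female lines with the same mutations (-0.51 and -0.31).

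The cathepsins and other proteases changed in both directions, and held the largest single change of the 49, -3.32 for Ctsc in female p53 Y217C. Of 10, 8 were higher and 2 lower in male p53 Y202C (median 0.92), 5 higher and 4 lower in male p53 Y217C (0.16), and 5 higher and 2 lower in male p53 R172H (0.17). In the female culture 8, 7, and 6 were higher and 1, 1, and 3 were lower in p53 R172H, p53 Y202C, and p53 Y217C (medians 0.63, 0.45, and 0.21). In that order of mutations, 34.4%, 34.3%, and 28.0% of all genes were higher in female and 35.3%, 34.3%, and 28.7% lower. Male shares of all genes were 20.2%, 37.6%, and 34.9% higher and 20.5%, 35.4%, and 35.6% lower, so the 4 of 10 lower in male p53 Y217C were near the share of all genes. Of the macrophage gene list, only 2 of 12 genes had values, Tmem119 and Csf1r, the latter at 0.198 to 3.18 CPM over all libraries. Csf1r was higher and Tmem119 lower in male p53 Y217C, and both were lower in male p53 Y202C. Both were higher in female p53 R172H and p53 Y202C. In female p53 Y217C 1 was higher, and in male p53 R172H neither was called. Every gene of the count table passed 1 CPM in at least 2 libraries, and the other listed genes were not in it. The 2 genes with values are too few to show a change in macrophages, and their part in the protease changes was not tested.

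Cathepsin D, encoded by Ctsd (chr7:142375911-142388038), is the main aspartyl protease of the lysosome. The level of Ctsd was 452, 514 and 543 CPM in male p53 KO. It was 527, 647 and 637 CPM with p53 R172H, 848, 857 and 762 CPM with p53 Y202C, and 1230.0, 1127 and 1273 CPM with p53 Y217C. Among female libraries, 455, 495 and 486 CPM were found with p53 KO, 568, 502 and 538 with p53 R172H, 549, 675 and 547 with p53 Y202C, and 778, 649.5 and 673 with p53 Y217C. The male p53 Y217C libraries lay above all others. In log2 fold change from male p53 KO, Ctsd differed by 0.26 ± 0.09 (SE, adjusted p = 0.024) with p53 R172H, 0.71 ± 0.09 (adjusted p = 2.15e-07) with p53 Y202C, and 1.27 ± 0.09 (adjusted p = 1.27e-11) with p53 Y217C. For the female lines the corresponding values were 0.16 ± 0.09 (adjusted p = 0.113), 0.30 ± 0.09 (adjusted p = 0.00512), and 0.55 ± 0.09 (adjusted p = 1.92e-05). The rise in male p53 R172H was not called without male p53 KO replicate 1, male p53 R172H replicate 2, or male p53 R172H replicate 3, at 0.19 (adjusted p = 0.14), 0.21 (adjusted p = 0.115), and 0.22 (adjusted p = 0.0962), and that in female p53 Y202C was not called without its replicate 2, at 0.20 (adjusted p = 0.0592). A predicted gene, Gm49369, shares exon bases with Ctsd on the same strand.

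Ctsb (chr14:63122462-63145923), a cysteine protease with both endopeptidase and dipeptidase activity, had its highest mean in female p53 R172H. For Ctsb the male p53 KO libraries gave 464, 498 and 496 CPM. Male p53 R172H gave 402, 447 and 458 CPM, male p53 Y202C 626, 684 and 607 CPM, and male p53 Y217C 575, 506 and 606 CPM. Levels in female p53 KO were 449.7, 479 and 459 CPM, beside 735, 681 and 744 with p53 R172H, 432, 536 and 454 with p53 Y202C, and 387, 353 and 370.3 with p53 Y217C. Levels in female p53 Y202C overlapped those of female p53 KO. Fold changes of Ctsb from male p53 KO, on the log2 scale, were -0.16 ± 0.07 (SE, adjusted p = 0.0934) with p53 R172H, 0.39 ± 0.07 (adjusted p = 4.92e-05) with p53 Y202C, and 0.21 ± 0.07 (adjusted p = 0.0153) with p53 Y217C. Measured from female p53 KO, the 3 values were 0.64 ± 0.07 (adjusted p = 5.98e-08), 0.04 ± 0.07 (adjusted p = 0.686), and -0.32 ± 0.07 (adjusted p = 0.000791), in the same order. The rise in male p53 Y217C was not called without male p53 KO replicate 1, at 0.18 (adjusted p = 0.0672), or without its own replicate 1 or 3, at 0.19 (adjusted p = 0.0548) and 0.14 (adjusted p = 0.119). Part of Ctsb overlaps Fdft1 on the other strand.

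Ctsk (chr3:95499256-95509362), a collagen-degrading protease best known from osteoclasts, had the largest fall of all members in each of the 3 male comparisons and the largest rise in female p53 R172H. Ctsk stood at 13.02, 15.9 and 16.1 CPM in the 3 male p53 KO libraries. With p53 R172H the male libraries held 7.61, 9.07 and 9.897 CPM, with p53 Y202C 5.14, 6.07 and 5.51 CPM, and with p53 Y217C 2.52, 2.29 and 2.36 CPM. Female p53 KO libraries held 6.17, 6.93 and 5.99 CPM, against 25.6, 22.2 and 22.5 with p53 R172H, 4.55, 5.55 and 5.49 with p53 Y202C, and 1.23, 1.32 and 1.61 with p53 Y217C. In the male culture the 4 lines did not overlap and p53 KO was highest, whereas in the female culture p53 R172H stood above p53 KO and p53 Y217C far below it. The log2 fold changes from male p53 KO were -0.76 ± 0.11 (SE, adjusted p = 6.08e-06) with p53 R172H, -1.43 ± 0.11 (adjusted p = 4.81e-11) with p53 Y202C, and -2.65 ± 0.12 (adjusted p = 1.89e-15) with p53 Y217C. From female p53 KO they were 1.88 ± 0.11 (adjusted p = 3.4e-13), -0.29 ± 0.12 (adjusted p = 0.0325), and -2.20 ± 0.13 (adjusted p = 1.21e-12) in the same order of mutations. The call in female p53 Y202C was lost without female p53 KO replicate 2, at -0.22 (adjusted p = 0.134), without its own replicate 1, at -0.20 (adjusted p = 0.158), or with only the lines compared (-0.27, adjusted p = 0.059).

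Ctsc (chr7:88278085-88310888), the dipeptidyl peptidase that activates serine proteases of immune granules, had the largest falls of the female culture in p53 R172H and p53 Y217C. Male p53 KO libraries held 6.42, 6.17 and 5.99 CPM of Ctsc. The male lines with p53 R172H had 6.61, 7.57 and 6.67 CPM, those with p53 Y202C 14.7, 15.2 and 17.7 CPM, and those with p53 Y217C 4.09, 3.92 and 4.61 CPM. The female lines had 4.07, 3.65 and 4.27 CPM without p53, 1.21, 1.098 and 1.13 CPM with p53 R172H, 13.8, 11.8 and 13.1 CPM with p53 Y202C, and 0.564, 0.191 and 0.443 CPM with p53 Y217C. The libraries of p53 Y202C were the highest of either culture, and those of female p53 Y217C did not reach 1 CPM. Relative to male p53 KO, the log2 fold changes were 0.17 ± 0.14 (SE, adjusted p = 0.347) with p53 R172H, 1.36 ± 0.13 (adjusted p = 2.91e-09) with p53 Y202C, and -0.56 ± 0.14 (adjusted p = 0.00106) with p53 Y217C. The female values in the same order were -1.81 ± 0.15 (adjusted p = 2.82e-10), 1.69 ± 0.14 (adjusted p = 1.9e-10), and -3.32 ± 0.19 (adjusted p = 4.82e-13). In female p53 Y217C this was 9.96-fold lower than in female p53 KO.

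Ctsh (chr9:90054152-90076089), an aminopeptidase, was called higher in each female mutant line and lower in male p53 Y202C and p53 Y217C. The level of Ctsh was 19.2, 20.5 and 21.4 CPM in male p53 KO. It was 21.6, 24.1 and 24.8 CPM with p53 R172H, 10.3, 12.2 and 11.7 CPM with p53 Y202C, and 8.61, 8.58 and 9.41 CPM with p53 Y217C. Among female libraries, 11.2, 12.6 and 11.4 CPM were found with p53 KO, 19.3, 21.2 and 18.5 with p53 R172H, 36.2, 38.3 and 44.6 with p53 Y202C, and 34.9, 32.4 and 33.4 with p53 Y217C. Its female p53 Y202C and p53 Y217C libraries lay above all male libraries, and male p53 KO lay above female p53 KO. In log2 fold change from male p53 KO, Ctsh differed by 0.20 ± 0.08 (SE, adjusted p = 0.048) with p53 R172H, -0.84 ± 0.08 (adjusted p = 2.91e-09) with p53 Y202C, and -1.20 ± 0.08 (adjusted p = 7.35e-12) with p53 Y217C. For the female lines the corresponding values were 0.74 ± 0.08 (adjusted p = 2.73e-08), 1.76 ± 0.08 (adjusted p = 9.04e-15), and 1.52 ± 0.08 (adjusted p = 3.29e-13). The male p53 R172H value lost its call without any one of 4 libraries, lowest at 0.16 (adjusted p = 0.172) without male p53 KO replicate 1 and likewise without male p53 R172H replicate 3, the others being male p53 KO replicate 2 and male p53 R172H replicate 2. It was also lost with DESeq2 size factors (adjusted p = 0.0521) or above 5 CPM in 3 libraries (0.0648). Among the other proteases, Ctsl rose in male p53 Y202C (1.55 ± 0.07, adjusted p = 4.36e-16) and Ctsz rose in female p53 R172H (1.75 ± 0.08, 1.65e-15) and fell in male p53 Y217C (-0.93 ± 0.08, 1.66e-10). Exon bases of Ctsl overlap predicted genes on both strands.

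**Figure D4:**
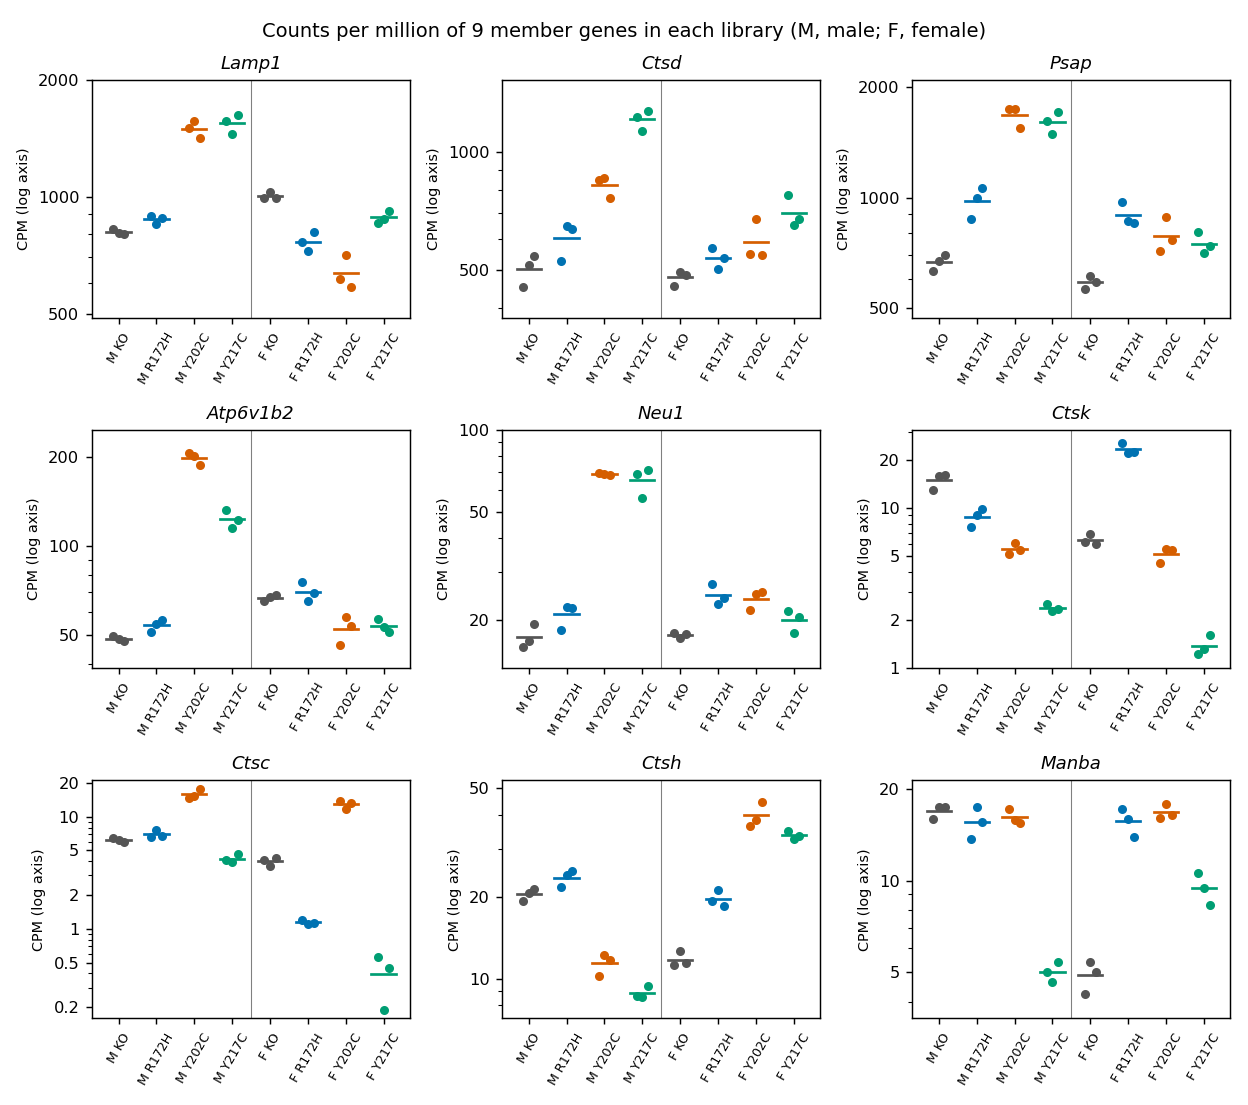
CPM of 9 members in each library (points, log axis) with the mean of each line (bar), male lines at the left and female lines at the right of each panel. Lamp1, Psap, Atp6v1b2, and Neu1 are highest in male p53 Y202C and p53 Y217C, Ctsd is highest in male p53 Y217C, and Ctsk, Ctsc, Ctsh, and Manba order the lines differently in the 2 cultures.

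Of the 9 glycan hydrolases, 5 were higher and none lower in male p53 R172H, 6 were higher and 1 lower in male p53 Y202C, and 7 were higher and 2 lower in male p53 Y217C (medians 0.25, 0.52, and 0.68). In the female culture 6, 7, and 4 were higher and 2 were lower in each of p53 R172H, p53 Y202C, and p53 Y217C (medians 0.31, 0.45, and 0.18). Beside them, 20.2%, 37.6%, and 34.9% of all genes were higher and 20.5%, 35.4%, and 35.6% lower in the male lines. For the female lines these shares were 34.4%, 34.3%, and 28.0% higher and 35.3%, 34.3%, and 28.7% lower. Neu1 (chr17:34931253-34935953), the sialidase that removes terminal sialic acid, had the largest rise of all members in male p53 Y217C. For Neu1 the male p53 KO libraries gave 15.9, 16.7 and 19.3 CPM. Male p53 R172H gave 18.4, 22.4 and 22.2 CPM, male p53 Y202C 69.4, 68.8 and 68.2 CPM, and male p53 Y217C 68.8, 56.2 and 70.9 CPM. Levels in female p53 KO were 17.9, 17.2 and 17.7 CPM, beside 27.04, 22.98 and 24.03 with p53 R172H, 21.7, 24.97 and 25.2 with p53 Y202C, and 21.6, 17.96 and 20.4 with p53 Y217C. Male p53 Y202C and p53 Y217C overlapped each other and lay above all other libraries. Fold changes of Neu1 from male p53 KO, on the log2 scale, were 0.28 ± 0.09 (SE, adjusted p = 0.0227) with p53 R172H, 1.99 ± 0.10 (adjusted p = 4.57e-15) with p53 Y202C, and 1.91 ± 0.10 (adjusted p = 8.77e-15) with p53 Y217C. Measured from female p53 KO, the 3 values were 0.49 ± 0.09 (adjusted p = 7.2e-05), 0.45 ± 0.10 (adjusted p = 0.000232), and 0.18 ± 0.10 (adjusted p = 0.103), in the same order. Without female p53 Y217C replicate 2 its value passed the test, at 0.26 (adjusted p = 0.0395), and the male p53 R172H call was lost without male p53 KO replicate 1 or 2 or male p53 R172H replicate 2 or 3, lowest at 0.22 (adjusted p = 0.107) without male p53 KO replicate 1.

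Manba (chr3:135485611-135571404), the β-mannosidase of glycoprotein breakdown, had the largest rise of all members in female p53 Y202C. Manba stood at 15.95, 17.4 and 17.4 CPM in the 3 male p53 KO libraries. With p53 R172H the male libraries held 13.7, 17.4 and 15.6 CPM, with p53 Y202C 17.1, 15.8 and 15.5 CPM, and with p53 Y217C 5.02, 4.63 and 5.41 CPM. Female p53 KO libraries held 4.23, 5.42 and 5.01 CPM, against 17.2, 15.9 and 13.9 with p53 R172H, 16.03, 17.8 and 16.4 with p53 Y202C, and 10.6, 9.48 and 8.32 with p53 Y217C. Female p53 KO and male p53 Y217C shared the lowest levels, and the female p53 R172H and p53 Y202C libraries overlapped with male p53 KO. The log2 fold changes from male p53 KO were -0.12 ± 0.10 (SE, adjusted p = 0.358) with p53 R172H, -0.07 ± 0.10 (adjusted p = 0.556) with p53 Y202C, and -1.76 ± 0.11 (adjusted p = 6.22e-13) with p53 Y217C. From female p53 KO they were 1.68 ± 0.11 (adjusted p = 1.56e-12), 1.78 ± 0.11 (adjusted p = 9.53e-13), and 0.96 ± 0.11 (adjusted p = 9.04e-08) in the same order of mutations. Among the other glycan hydrolases, Idua, which cleaves glycosaminoglycans, rose most in male p53 Y217C (1.84 ± 0.11, adjusted p = 5.89e-13), with exon bases shared with Slc26a1 and Dgkq on the other strand. Glb1, the lysosomal β-galactosidase, was called higher in all 6 comparisons, from 0.33 in male p53 R172H to 1.30 in male p53 Y217C, and shares exon bases with Tmppe on the same strand. Man2b1, an α-mannosidase, was lower in each female mutant line (-0.52, -0.49, and -0.64).

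The lipid hydrolases and lipid carriers moved largely one way. All 10 were higher in male p53 Y202C (median 0.99) and in male p53 Y217C (1.24), and 5 were higher and 2 lower in male p53 R172H (0.19). In the female culture 7 were higher and 1 lower in p53 R172H (0.56), 8 were higher and none lower in p53 Y202C (0.38), and 6 were higher and none lower in p53 Y217C (0.29). All genes were called higher at shares of 20.2%, 37.6%, and 34.9% in male p53 R172H, p53 Y202C, and p53 Y217C. In the female lines the shares were 34.4%, 34.3%, and 28.0%. Lower were 20.5%, 35.4%, and 35.6% in male and 35.3%, 34.3%, and 28.7% in female. Psap (chr10:60277627-60302597) encodes prosaposin, from which the saposins that present sphingolipids to their hydrolases are released. Male p53 KO libraries held 631, 671 and 698 CPM of Psap. The male lines with p53 R172H had 874, 996 and 1065 CPM, those with p53 Y202C 1747, 1747 and 1551 CPM, and those with p53 Y217C 1620.3, 1491 and 1708 CPM. The female lines had 563, 613 and 588 CPM without p53, 971, 865 and 853 CPM with p53 R172H, 717, 884 and 765 CPM with p53 Y202C, and 805, 707 and 737 CPM with p53 Y217C. Every mutant library lay above all p53 KO libraries of its culture. Relative to male p53 KO, the log2 fold changes were 0.55 ± 0.08 (SE, adjusted p = 8.26e-06) with p53 R172H, 1.33 ± 0.08 (adjusted p = 4.94e-13) with p53 Y202C, and 1.27 ± 0.08 (adjusted p = 1.37e-12) with p53 Y217C. The female values in the same order were 0.61 ± 0.08 (adjusted p = 4.74e-07), 0.42 ± 0.08 (adjusted p = 6.93e-05), and 0.35 ± 0.08 (adjusted p = 0.000777).

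Hexa (chr9:59539540-59565109), the α subunit of β-hexosaminidase A, which degrades GM2 ganglioside, had the largest rise of all members in male p53 R172H. The level of Hexa was 81.6, 87.7 and 86.6 CPM in male p53 KO. It was 114, 138 and 140.4 CPM with p53 R172H, 227, 255 and 236 CPM with p53 Y202C, and 274, 232 and 284 CPM with p53 Y217C. Among female libraries, 85.5, 86.9 and 83.2 CPM were found with p53 KO, 102, 94.7 and 89.8 with p53 R172H, 88.7, 101 and 91.8 with p53 Y202C, and 147, 132 and 138 with p53 Y217C. The male p53 Y202C and p53 Y217C libraries overlapped each other and lay above the rest. In log2 fold change from male p53 KO, Hexa differed by 0.62 ± 0.08 (SE, adjusted p = 1.08e-06) with p53 R172H, 1.49 ± 0.08 (adjusted p = 3.13e-14) with p53 Y202C, and 1.63 ± 0.08 (adjusted p = 6.14e-15) with p53 Y217C. For the female lines the corresponding values were 0.16 ± 0.08 (adjusted p = 0.0666), 0.14 ± 0.08 (adjusted p = 0.122), and 0.70 ± 0.08 (adjusted p = 5.7e-08). Without female p53 R172H replicate 3 the value of that line passed the test, at 0.20 (adjusted p = 0.0398), as it did with limma (0.16, adjusted p = 0.0282) and DESeq2 (0.18, 0.0363). Lipa, the acid lipase that frees cholesterol and fatty acids, rose in female p53 R172H (1.19 ± 0.09, adjusted p = 3.28e-11) and in male p53 Y217C (1.65 ± 0.09, 6.68e-14). Galc, which breaks down galactosylceramide of myelin, rose in male p53 Y217C (1.37 ± 0.08, 5.81e-13) and fell in female p53 R172H (-0.80 ± 0.09, 1.81e-08). Exon bases of Hexa overlap Tmem202 and those of Galc overlap Gm47439, both on the other strand.

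Among the subunits of the V-ATPase, all 6 of the V1 head were higher in male p53 Y202C (median 0.90) and in male p53 Y217C (0.86), whereas none was higher and 3 were lower in male p53 R172H (-0.09). In the female culture 2 were higher and none lower in p53 R172H, 3 higher and 2 lower in p53 Y202C, and 2 higher and 2 lower in p53 Y217C, with medians of 0.09, 0.03, and -0.04. Of the 5 V0 and accessory subunits, 3 were higher and 1 lower in male p53 Y202C (median 0.69), all 5 were higher in male p53 Y217C (1.06), and 2 were higher in male p53 R172H (0.14). The female counts were 5 higher in p53 R172H (0.30), 2 higher and 2 lower in p53 Y202C (-0.04), and 3 higher and 1 lower in p53 Y217C (0.14). Shares of all genes called higher in the order p53 R172H, p53 Y202C, p53 Y217C were 20.2%, 37.6%, and 34.9% in male and 34.4%, 34.3%, and 28.0% in female. Those lower were 20.5%, 35.4%, and 35.6%, then 35.3%, 34.3%, and 28.7%. Most V1 counts of the female lines were near these shares.

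Atp6v1b2 (chr8:69088646-69113711), the B2 subunit of the ATP-hydrolyzing ring, had the largest rise of all members in male p53 Y202C. For Atp6v1b2 the male p53 KO libraries gave 49.7, 48.7 and 47.8 CPM. Male p53 R172H gave 51.3, 54.6 and 56.4 CPM, male p53 Y202C 206, 201 and 188 CPM, and male p53 Y217C 132, 115 and 122 CPM. Levels in female p53 KO were 65.03, 67.3 and 68.3 CPM, beside 75.5, 65.04 and 69.2 with p53 R172H, 46.3, 57.4 and 53.6 with p53 Y202C, and 56.8, 53.4 and 51.3 with p53 Y217C. Male p53 Y202C stood highest and male p53 Y217C next, neither overlapping any other line, and the female p53 Y202C and p53 Y217C libraries lay below female p53 KO. Fold changes of Atp6v1b2 from male p53 KO, on the log2 scale, were 0.15 ± 0.07 (SE, adjusted p = 0.0847) with p53 R172H, 2.03 ± 0.07 (adjusted p = 1.28e-17) with p53 Y202C, and 1.34 ± 0.07 (adjusted p = 2.2e-14) with p53 Y217C. Measured from female p53 KO, the 3 values were 0.06 ± 0.07 (adjusted p = 0.416), -0.35 ± 0.07 (adjusted p = 0.000108), and -0.31 ± 0.07 (adjusted p = 0.000509), in the same order.

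Atp6v1a (chr16:44085402-44139705), the catalytic A subunit of the same ring, varied less. Atp6v1a stood at 112, 109 and 112 CPM in the 3 male p53 KO libraries. With p53 R172H the male libraries held 105, 112 and 109.98 CPM, with p53 Y202C 215, 217.5 and 223 CPM, and with p53 Y217C 161, 155.1 and 159 CPM. Female p53 KO libraries held 96.96, 103 and 97.6 CPM, against 117, 113 and 113 with p53 R172H, 116, 108 and 111 with p53 Y202C, and 119, 115 and 115 with p53 Y217C. The female mutant libraries lay above female p53 KO by a small margin and overlapped one another. The log2 fold changes from male p53 KO were -0.02 ± 0.04 (SE, adjusted p = 0.719) with p53 R172H, 0.98 ± 0.04 (adjusted p = 6.36e-16) with p53 Y202C, and 0.52 ± 0.04 (adjusted p = 9.92e-11) with p53 Y217C. From female p53 KO they were 0.20 ± 0.04 (adjusted p = 0.000163), 0.17 ± 0.04 (adjusted p = 0.00105), and 0.23 ± 0.04 (adjusted p = 7.88e-05) in the same order of mutations.

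Atp6v0d1 (chr8:105524465-105566047), the subunit that joins the V0 ring to the stalk, rose in all 3 female lines and in 2 of the male ones. Male p53 KO libraries held 69.4, 74.2 and 77.03 CPM of Atp6v0d1. The male lines with p53 R172H had 75.1, 82.2 and 85.7 CPM, those with p53 Y202C 118, 121 and 118 CPM, and those with p53 Y217C 179.97, 154 and 176 CPM. The female lines had 54.8, 55.5 and 57.7 CPM without p53, 107, 95.6 and 92.2 CPM with p53 R172H, 82.7, 97.1 and 85.2 CPM with p53 Y202C, and 92.01, 80.4 and 75.9 CPM with p53 Y217C. All mutant libraries of the female culture lay above female p53 KO, whereas the male p53 R172H libraries overlapped male p53 KO. Relative to male p53 KO, the log2 fold changes were 0.14 ± 0.08 (SE, adjusted p = 0.152) with p53 R172H, 0.69 ± 0.08 (adjusted p = 1.69e-08) with p53 Y202C, and 1.21 ± 0.08 (adjusted p = 8.89e-13) with p53 Y217C. The female values in the same order were 0.81 ± 0.08 (adjusted p = 1.51e-09), 0.66 ± 0.08 (adjusted p = 6.43e-08), and 0.56 ± 0.08 (adjusted p = 1.19e-06). Atp6ap2, the accessory subunit also called the prorenin receptor, rose in male p53 Y202C (1.96 ± 0.06, adjusted p = 1.83e-18) and fell in female p53 Y202C (-0.45 ± 0.06, 6.34e-07). Within the enzyme the subunits were not raised equally: in male p53 Y202C the log2 fold changes ran from -0.22 for Atp6v0a1 and 0.00 for Atp6v0e to 2.03 for Atp6v1b2, and in male p53 Y217C from 0.29 for Atp6v1h to 1.59 for Atp6v1d.

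The log2 fold changes of the transcription factors stayed below 1 in each comparison. Tfe3 (chrX:7762560-7775202) was called higher in all 6 mutant lines, by 0.14 to 0.36. The level of Tfe3 was 85.4, 91.9 and 90.2 CPM in male p53 KO. It was 96.5, 98.9 and 98.97 CPM with p53 R172H, 112, 105 and 102 CPM with p53 Y202C, and 111, 104 and 109 CPM with p53 Y217C. Among female libraries, 85.7, 86.6 and 84.9 CPM were found with p53 KO, 108, 110.1 and 111 with p53 R172H, 92.96, 100.03 and 94.02 with p53 Y202C, and 100.4, 99.1 and 97.2 with p53 Y217C. Each mutant library lay above the p53 KO libraries of its culture. In log2 fold change from male p53 KO, Tfe3 differed by 0.14 ± 0.04 (SE, adjusted p = 0.0139) with p53 R172H, 0.25 ± 0.04 (adjusted p = 1.39e-05) with p53 Y202C, and 0.28 ± 0.04 (adjusted p = 4.92e-06) with p53 Y217C. For the female lines the corresponding values were 0.36 ± 0.04 (adjusted p = 1.13e-07), 0.16 ± 0.04 (adjusted p = 0.00262), and 0.21 ± 0.04 (adjusted p = 0.000312).

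Tfeb (chr17:47737030-47792419) was called higher in 5 of the 6 mutant lines and was highest in female p53 Y202C. For Tfeb the male p53 KO libraries gave 9.33, 11.3 and 11.1 CPM. Male p53 R172H gave 12.01, 13.2 and 13.2 CPM, male p53 Y202C 11.5, 9.56 and 9.17 CPM, and male p53 Y217C 18.1, 17.1 and 17.8 CPM. Levels in female p53 KO were 11.7, 11.99 and 12.6 CPM, beside 19.1, 16.996 and 18.4 with p53 R172H, 24.3, 25.4 and 22.4 with p53 Y202C, and 15.5, 14.5 and 14.5 with p53 Y217C. Male p53 Y202C, where 41 members were higher, overlapped male p53 KO in Tfeb. Fold changes of Tfeb from male p53 KO, on the log2 scale, were 0.27 ± 0.08 (SE, adjusted p = 0.0112) with p53 R172H, -0.07 ± 0.08 (adjusted p = 0.485) with p53 Y202C, and 0.74 ± 0.08 (adjusted p = 2.97e-08) with p53 Y217C. Measured from female p53 KO, the 3 values were 0.59 ± 0.08 (adjusted p = 1.02e-06), 0.99 ± 0.08 (adjusted p = 2.68e-10), and 0.30 ± 0.08 (adjusted p = 0.00432), in the same order. Without male p53 KO replicate 1, neither factor was called in male p53 R172H, at 0.19 (adjusted p = 0.086) for Tfeb and 0.11 (adjusted p = 0.0848) for Tfe3. Transcript levels do not show how much of either protein is in the nucleus, which was not measured here.

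The effects of a mutation in the 2 cultures, which share no library, were compared by an interaction term. The term is the log2 fold change in male minus that in female, with its sign. A larger effect in male thus means a higher log2 fold change there, not a bigger change. A gene that fell less in male than in female counts as larger, and one that fell more as smaller. The p53 R172H effect was larger in the male culture for 7 members and smaller for 25, with 29.7% and 28.3% of all genes called, and the median difference was -0.21. The p53 Y202C effect was larger in male for 32 members and smaller for 7 (34.5% and 33.5% of all genes, median 0.44), and the p53 Y217C effect was larger in male for 39 and smaller for 5 (27.5% and 27.4%, median 0.76). For p53 Y217C all 11 V-ATPase subunits and all 7 membrane proteins had a higher log2 fold change in the male culture. The members with the highest difference there were Ctsc, 2.76 ± 0.24 (adjusted p = 4.99e-10), Idua, 1.79 ± 0.16 (adjusted p = 1.13e-09), and Neu1, 1.73 ± 0.13 (adjusted p = 7.52e-11), and those with the lowest were Ctsh, -2.72 ± 0.12 (adjusted p = 1.95e-15), and Manba, -2.71 ± 0.15 (adjusted p = 2.51e-13).

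By calls, 19 members were higher in both cultures with p53 R172H, which is 82.6% of those higher in male and 54.3% of those higher in female. With p53 Y202C the number was 29 (70.7% and 87.9%) and with p53 Y217C 22 (52.4% and 84.6%). Over all 14427 genes, those higher in both were 48.5% of the male and 28.5% of the female calls with p53 R172H, 39.3% and 43.1% with p53 Y202C, and 43.3% and 54.0% with p53 Y217C. Of all 49 members, 71.4%, 67.3%, and 53.1% were higher in female with the 3 mutations, and 46.9%, 83.7%, and 85.7% in male. The members' overlaps follow in part from these high shares, and with p53 Y217C they did not exceed them. Members called higher in male and lower in female numbered 2, 7, and 8 for the 3 mutations, and members called lower in male and higher in female 3, 2, and 3. As shares of the 49 the first were 4.08%, 14.3%, and 16.3%, beside 5.12%, 12.2%, and 5.91% of all genes, and the second 6.12%, 4.08%, and 6.12%, beside 6.79%, 10.9%, and 6.33%. Lamp1, Scarb2, Atp6v1b2, and Atp6v1h were higher in male and lower in female with p53 Y202C and again with p53 Y217C, and Ctsh was lower in male and higher in female with both. The p53 Y202C and p53 Y217C effects of one culture share its p53 KO libraries.

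**Figure D5:**
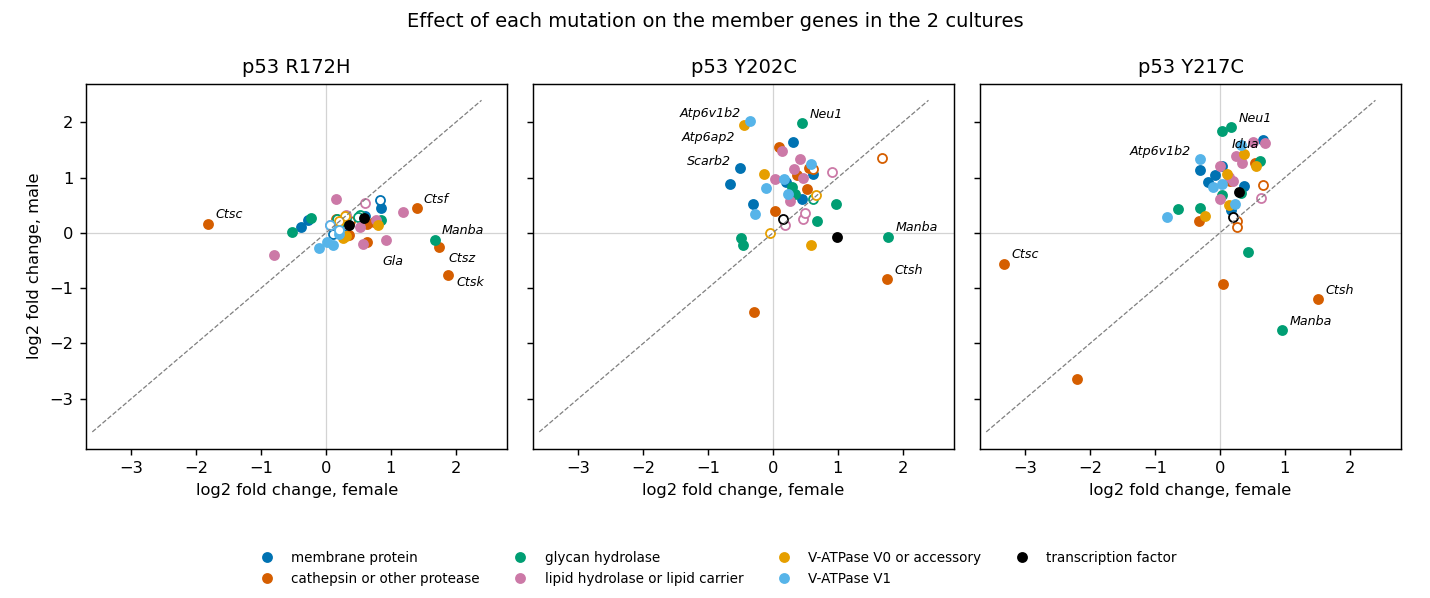
log2 fold change of each member in the male culture (vertical) against the female culture (horizontal), 1 panel per mutation, colored by role. Filled circles have an interaction at an adjusted p of 0.05 or less, open circles do not, the dashed line marks equal effects, and the 6 members farthest from it are named. With p53 Y217C 39 members lie above the line with an interaction called, and with p53 R172H 7 do.

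Genes related to the members were counted in the same fits. Of 44 further lysosomal genes, 17 were higher and 3 lower in male p53 R172H, 29 and 8 in male p53 Y202C, and 32 and 6 in male p53 Y217C, with medians of 0.11, 0.49, and 0.76. The female counts were 30 and 8 with p53 R172H, 26 and 9 with p53 Y202C, and 19 and 7 with p53 Y217C, with medians of 0.34, 0.23, and 0.14. The shares called higher, 38.6%, 65.9%, and 72.7% in male and 68.2%, 59.1%, and 43.2% in female, lay above those of all genes (20.2%, 37.6%, and 34.9%, then 34.4%, 34.3%, and 28.0%). Cd68, a lysosomal glycoprotein abundant in macrophages, had the largest rise of the list in male p53 Y202C (2.70 ± 0.14, adjusted p = 2.13e-14), from 3.61, 3.21, and 3.78 CPM in male p53 KO to 21.4, 25.5, and 21.8. Gpnmb, a membrane glycoprotein of late endosomes and melanosomes, had the largest rise in female p53 R172H (2.59 ± 0.14, 5.28e-14) and the largest falls in male p53 Y217C (-2.68 ± 0.20, 2.51e-11) and female p53 Y217C (-4.66 ± 0.21, 1.14e-14). Other extremes of the list were Hyal1 (0.88) and Tpcn1 (-0.33) in male p53 R172H, Hyal2 in male p53 Y202C (-1.08) and in female p53 R172H (-0.91), Ostm1 (1.98) in male p53 Y217C, and Arsa (1.71) and Sort1 (-1.59) in female p53 Y202C, all of them called.

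Of 9 further V-ATPase subunits with values, many of them tissue-restricted isoforms, 0, 5, and 7 were higher and 1, 3, and 0 lower in male p53 R172H, p53 Y202C, and p53 Y217C, and 5, 3, and 2 were higher and 0, 4, and 2 lower in the female lines in the same order. The medians were -0.02, 0.41, and 0.62 in male and 0.24, -0.08, and -0.09 in female. With 9 genes the shares called higher were 0%, 55.6%, and 77.8% in male, beside 20.2%, 37.6%, and 34.9% of all genes. They were 55.6%, 33.3%, and 22.2% in female, beside 34.4%, 34.3%, and 28.0%. Shares called lower were 11.1%, 33.3%, and 0% in male (20.5%, 35.4%, and 35.6% of all genes). In female they were 0%, 44.4%, and 22.2% (35.3%, 34.3%, and 28.7%). Atp6v0e2 spanned the widest range, from 0.373, 0.896, and 0.256 CPM in female p53 Y202C (-2.66 ± 0.21, adjusted p = 7.41e-11) to 64.0, 59.7, and 67.3 CPM in male p53 Y217C (3.86 ± 0.15, 5.05e-17), and it was the lowest of the list in male p53 R172H (-1.48) and female p53 Y217C (-0.65). Atp6v1g1 had the largest rise in male p53 Y202C (2.05) and Atp6v0a4 the lowest value there (-0.74). Atp6v0a4 had the largest rise in each of the female lines (1.95, 2.27, and 1.05), at 0.383 to 2.94 CPM in that culture. Atp6v1f in male p53 R172H (0.19, adjusted p = 0.153), Atp6v0a4 in male p53 Y217C (0.11, 0.654), and Atp6v0c in female p53 R172H (-0.11, 0.441) were the remaining extremes and did not pass the test.

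The 18 genes that tether or regulate mTORC1 at the lysosome were mostly higher in 2 of the male lines. In male p53 R172H, p53 Y202C, and p53 Y217C 4, 15, and 13 were higher and 3, 3, and 2 lower (medians 0.08, 0.60, and 0.35), and in the female lines 4, 3, and 1 were higher and 7, 8, and 4 lower (medians 0.00, -0.13, and -0.01). By the interaction term, the log2 fold change was higher in male for 5 and lower for 1 with p53 R172H (27.8% and 5.56%, beside 29.7% and 28.3% of all genes). It was higher for 13 and lower for none with p53 Y202C (72.2%, beside 34.5%), and higher for 12 and lower for 1 with p53 Y217C (66.7% and 5.56%, beside 27.5% and 27.4%). In male p53 R172H the shares called higher and lower, 22.2% and 16.7%, were near the 20.2% and 20.5% of all genes. With p53 Y202C and p53 Y217C in male they were 83.3% and 72.2% higher (37.6% and 34.9% of all genes) and 16.7% and 11.1% lower (35.4% and 35.6%). Female shares called higher were 22.2%, 16.7%, and 5.56%, below the 34.4%, 34.3%, and 28.0% of all genes. Those called lower were 38.9%, 44.4%, and 22.2%, beside 35.3%, 34.3%, and 28.7%. Rragb, a Rag GTPase, had the largest rise in each male line, to 2.53, 2.18, and 1.998 CPM with p53 Y202C and 4.13, 4.07, and 4.04 CPM with p53 Y217C, from 0.242, 0.405, and 0.480 CPM in male p53 KO. Rragb already differed between the references, with 3.80, 3.84, and 3.57 CPM in female p53 KO (male against female -3.27 ± 0.22, adjusted p = 3.59e-11). It fell most in female p53 Y202C (-4.02 ± 0.26, adjusted p = 1.9e-12) and in female p53 Y217C, whose libraries held 0, 2, and 0 counts against 387, 300, and 370 in female p53 KO, at least 84.3-fold lower with 3 counts per library taken as the floor. Rragd had the largest fall in female p53 R172H (-3.01 ± 0.12, 3.75e-16), and Lamtor4 (0.45) and Lamtor2 (0.59 and 0.24) the largest rises in the female lines. The lowest values of the male lines were those of Mtor (-0.22), Mlst8 (-0.22), and Rptor (-0.39).

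Of 20 autophagy genes and regulators, 3, 13, and 11 were higher and 4, 5, and 5 lower in the male lines in the order p53 R172H, p53 Y202C, p53 Y217C (medians 0.00, 0.45, and 0.13), and 11, 9, and 12 were higher and 5, 5, and 4 lower in the female lines (0.17, 0.14, and 0.15). In male p53 R172H these are 15% and 20% of the list, at or below the shares of all genes (20.2% and 20.5%). In male p53 Y202C and p53 Y217C the shares called higher were 65% and 55%, beside 37.6% and 34.9%, and in the female lines 55%, 45%, and 60%, beside 34.4%, 34.3%, and 28.0%. Sqstm1, the autophagy receptor p62, had the largest rise in male p53 Y202C (1.63 ± 0.06, adjusted p = 2.86e-17), from 395, 419.9, and 417 CPM in male p53 KO to 1257, 1342, and 1218 CPM. Map1lc3b rose most in male p53 Y217C (0.73) and female p53 Y217C (0.67), Map1lc3a in female p53 R172H (0.95), Atg7 in male p53 R172H (0.24), and Mitf, a relative of Tfeb, in female p53 Y202C (0.97). Mitf had the lowest value in male p53 R172H (-0.80), Wipi1 in male p53 Y202C (-0.83) and male p53 Y217C (-1.09), Wipi2 in female p53 Y202C (-0.56), and Atg16l1 in female p53 R172H (-0.44) and female p53 Y217C (-0.71).

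The members were last divided by their promoter windows. In male p53 Y202C 13 of the 14 members with CACGTG were higher and none lower (median 0.80), and of the 28 with a window but without the motif 22 were higher and 3 lower (0.82). In male p53 Y217C the counts were 12 higher and 1 lower of 14 (0.90) against 24 higher and 4 lower of 28 (0.94), and the 8 members with TCACGTGA were all higher (1.11). In male p53 R172H 7 were higher and none lower of 14 (0.16), against 14 higher and 5 lower of 28 (0.19). The medians with and without CACGTG in the female lines were 0.33 and 0.37 with p53 R172H, 0.33 and 0.35 with p53 Y202C, and 0.26 and 0.17 with p53 Y217C. The difference between members with and without the motif was not tested.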

How the data were processed

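PolyA RNA of 24 libraries from 8 lines was sequenced by the authors, who aligned reads with STAR 2.5.1a and deposited raw counts per gene from featureCounts of Subread, with no normalization. The strand setting of the counting was not given in the sources used here. Counts of 14427 genes were tested with edgeR 4.0.16 (R 4.3.3; quasi-likelihood test, TMM factors, 1 mean per line over all 24 libraries). A minimum of 1 CPM in 2 or more libraries was met by every gene. P-values were adjusted over all genes by Benjamini-Hochberg and called at 0.05. Sums and figures used Python 3.11.15 and pandas 2.3.3.

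Gene IDs were named and placed with GENCODE M21 (GRCm38), which held 14350 of the 14427, and promoter windows came from RefSeq (GRCm38.p6). No library was left out. Members and gene lists were chosen with earlier results of these data known. Members given with every library were the largest rise and the largest fall in each mutant comparison plus 10 fixed members, and the lists of related genes were named by their extremes, 1 of which is not reported here.

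Simulated counts with 200 changed genes were used to test the fitting. The alternatives were limma 3.58.1 with voom quality weights, DESeq2 1.42.0 and its size factors, no filter or 5 CPM in 3 libraries, a fit of the compared lines alone, a block for the replicate number, an adjusted p of 0.01, a log2 fold change beyond 0.5, a shorter promoter window, and leaving out each library. The study calls the 3 RNA-seq libraries of a line independent replicates, and describes separate thaws and platings for its experiments in culture. How these libraries in particular were grown is not stated. All 3 come from 1 transduced population, so p-values measure the spread between these libraries, which may be technical.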

Additional observations from a re-analysis of the deposited data

Results flagged for a closer look

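The effect of p53 R172H differed between the cultures in 12 of the 16 members with a full description, by the interaction term of the edgeR fit, with 29.7% and 28.3% of all genes called in the 2 directions. The log2 fold change was higher in male for Ctsc (1.97, adjusted p = 1.64e-08), Lamp1 (0.50, adjusted p = 3.07e-05), Mcoln1 (0.50, adjusted p = 5.61e-05), and Hexa (0.45, adjusted p = 0.00114), as differences of log2 fold changes. The log2 fold change was lower in male for Ctsk (-2.65, 6.34e-13), Manba (-1.81, 2.64e-10), Ctsb (-0.80, 7.2e-07), Atp6v0d1 (-0.67, 1e-05), Ctsh (-0.54, 0.000338), Tfeb (-0.31, 0.0252), Atp6v1a (-0.22, 0.00245), and Tfe3 (-0.22, 0.00384).

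The effect of p53 Y202C differed between the cultures in 13 of the 16 members with a full description, by the interaction term of the edgeR fit, with 34.5% and 33.5% of all genes called in the 2 directions. The log2 fold change was higher in male for Atp6v1b2 (2.37, adjusted p = 4.51e-16), Lamp1 (1.54, adjusted p = 1.35e-13), Neu1 (1.54, adjusted p = 3.41e-10), Hexa (1.35, adjusted p = 1.3e-10), Psap (0.91, adjusted p = 1.86e-07), Mcoln1 (0.83, adjusted p = 2.57e-08), Atp6v1a (0.81, adjusted p = 1.84e-11), Ctsd (0.41, adjusted p = 0.00754), and Ctsb (0.36, adjusted p = 0.00443), as differences of log2 fold changes. The log2 fold change was lower in male for Ctsh (-2.60, 2.28e-15), Manba (-1.85, 9.75e-11), Ctsk (-1.15, 1.05e-06), and Tfeb (-1.06, 2.86e-08).

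The effect of p53 Y217C differed between the cultures in 15 of the 16 members with a full description, by the interaction term of the edgeR fit, with 27.5% and 27.4% of all genes called in the 2 directions. The log2 fold change was higher in male for Ctsc (2.76, adjusted p = 4.99e-10), Neu1 (1.73, adjusted p = 7.52e-11), Atp6v1b2 (1.65, adjusted p = 5.56e-13), Mcoln1 (1.18, adjusted p = 9.19e-11), Lamp1 (1.11, adjusted p = 8.65e-11), Hexa (0.92, adjusted p = 1.42e-07), Psap (0.92, adjusted p = 2.78e-07), Ctsd (0.72, adjusted p = 4.45e-05), Atp6v0d1 (0.64, adjusted p = 1.83e-05), Ctsb (0.53, adjusted p = 0.000149), Tfeb (0.44, adjusted p = 0.00258), and Atp6v1a (0.29, adjusted p = 0.000206), as differences of log2 fold changes. The log2 fold change was lower in male for Ctsh (-2.72, 1.95e-15), Manba (-2.71, 2.51e-13), and Ctsk (-0.45, 0.0357), which fell in both cultures.

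The 16 members include the largest rises and falls of these same comparisons, so these numbers of members are raised by how the members were chosen and are a description. Each line has 3 libraries, which is too few to test a single library as an outlier of its line. Each culture was 1 pool of pups. A difference between the cultures and a difference between the sexes cannot be told apart.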

How the results depend on the processing

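No call or count changed direction under any alternative run. Of 294 member calls, 281 stayed on their side of the threshold with limma, 291 with DESeq2, 289 with DESeq2 size factors, 284 with 5 CPM in 3 libraries, and 281 with only the lines compared. Leaving out the filter gives the same fit, since every gene met it. Leaving out 1 library kept 1667 of 1764 calls, with 86 lost and 11 gained. The 17 counts of members stayed within 1.5 times their value with all of these tools and filters. Leaving out 1 library moved the count of members higher in male p53 R172H between 14 and 24, from 23, with 14 reached without male p53 KO replicate 1 or male p53 R172H replicate 3. At an adjusted p of 0.01 it was 14. Requiring a log2 fold change beyond 0.5 as well lowers counts by construction. It left 3 members higher and 1 lower in male p53 R172H, 2 lower in male p53 Y202C, 20 higher and 3 lower in female p53 R172H, 16 higher and 2 lower in female p53 Y202C, and 10 higher and 4 lower in female p53 Y217C. It left 5 members higher and 2 lower between the p53 KO lines and 15 with a p53 R172H interaction.

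Libraries with the same replicate number did not deviate together (mean r of -0.012 for 84 such pairs and 0.006 for the 168 others), so the numbers were not taken to pair them. With the number as a replicate block 290 of 294 calls were kept, and 21 members were higher in male p53 R172H.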
